A study of Mus musculus with 16 samples.

Results

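The HoxB cluster of the mouse holds 10 homeobox genes on chromosome 11, and its chromatin was described here in immortalized mouse embryonic fibroblasts. The members were taken by name (Hoxb1 to Hoxb9 and Hoxb13), and all 10 were found among the 21887 protein-coding genes of the reference table. Regions were taken where they shared at least 1 bp with the span of these genes plus 10000 bp on each side (mm10 chromosome 11, 96184316 to 96378254, 193939 bp). This window held 7 of the 26654 H3K4me3 regions, 19 of the 98342 H3K27me3 regions and 0 of the 10888 succinyllysine regions of the series.

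The 16 samples were 2 input libraries and 2 ChIP-seq libraries per antibody (H3K4me3, H3K27me3 and succinyllysine) from an experimental line (R26M2rtTA/+;TetOcre;Sdhcfl/fl) and a control line (R26M2rtTA/+;TetOcre;Sdhcfl/wt). Both lines carried the doxycycline-dependent transactivator and the Cre transgene that it drives, both received doxycycline at 1 µg/mL, and both were collected at day 16. The experimental line had both copies of Sdhc floxed, and the control line had a single floxed copy beside a wild-type one. Sdhc encodes a membrane subunit of succinate dehydrogenase. The labels do not say whether a line was a single clone or whether its 2 libraries per antibody came from separate cultures. Each antibody had 1 deposited list of regions for its 4 ChIP samples, so the lines could not be compared, no value has a replicate error, and a region may come from 1 line or from both. Marks listed at the same bases need not lie on the same chromosome copy or in the same cells, and read depth is unknown.

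Hox genes encode transcription factors that give positions along the body axis their identity. They lie in clusters, all genes of a cluster are read in the same direction, and their order along the chromosome follows the order of the body regions in which they act, from the head end (group number 1) to the tail end (group number 13). H3K27me3 is laid down by Polycomb repressive complex PRC2 and marks silent developmental genes, often as broad domains over Hox clusters. H3K4me3 marks starts of active genes, and starts that carry both marks are called bivalent. Fibroblasts in culture are known to keep a Hox pattern that reflects the body site they came from. Succinyllysine is lysine that carries a succinyl group, a modification found on histones and on other proteins.

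The upstream sequence of 3 members was listed in the RefSeq promoter table (build GRCm38.p6, with mm10 coordinates): Hoxb8, Hoxb4 and Hoxb1. They are shown because they differ in H3K4me3 while all 3 lie inside H3K27me3 regions. Each is the 250 bases before the start, 5′ to 3′ on the plus strand, with CG dinucleotides in capitals. They lie at chr11:96281655-96281904, chr11:96318017-96318266 and chr11:96365508-96365757.
Hoxb8: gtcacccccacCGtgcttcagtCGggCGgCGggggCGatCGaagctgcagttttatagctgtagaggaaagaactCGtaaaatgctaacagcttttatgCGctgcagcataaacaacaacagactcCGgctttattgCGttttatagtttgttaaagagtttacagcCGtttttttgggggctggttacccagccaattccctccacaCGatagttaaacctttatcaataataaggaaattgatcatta
Hoxb4: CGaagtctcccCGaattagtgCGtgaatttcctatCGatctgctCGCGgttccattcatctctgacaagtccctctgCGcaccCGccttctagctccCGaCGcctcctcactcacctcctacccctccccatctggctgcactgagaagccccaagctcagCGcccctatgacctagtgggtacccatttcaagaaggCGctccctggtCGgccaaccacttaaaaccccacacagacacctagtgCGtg
Hoxb1: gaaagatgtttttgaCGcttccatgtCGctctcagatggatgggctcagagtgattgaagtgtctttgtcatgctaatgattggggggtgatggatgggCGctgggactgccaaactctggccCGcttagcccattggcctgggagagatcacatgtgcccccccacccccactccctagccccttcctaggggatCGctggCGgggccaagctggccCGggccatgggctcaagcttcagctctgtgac

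The Hoxb8 sequence held 12 CG, the Hoxb4 sequence 14 and the Hoxb1 sequence 7, beside a median of 6 over the 32851 sequences of the table, which include those of noncoding genes. The ratio of observed to expected CG was 0.974 for Hoxb8, 0.760 for Hoxb4 and 0.320 for Hoxb1, beside a median of 0.373. The H3K4me3 list covered all 250 bases before Hoxb4. It covered the last 4 bases before Hoxb8, where a region began on the list's grid of 100 bp almost exactly at the annotated start (96281905). Hoxb1 had no H3K4me3 region within 45458 bp of its start. H3K27me3 covered all 250 bases before each of the 3 genes. TATAAA (the TATA box, both strands searched) occurred 2 times before Hoxb8, each time on the strand opposite to the gene (TTTATA as shown). It occurred in neither of the other sequences, and 12.4% of all sequences held it on either strand. CCAAT (both strands) occurred before Hoxb8 and Hoxb1 and in 33.8% of all sequences. GAGAG (both strands) occurred before Hoxb1 alone of the 3 and in 54.7% of all. The string TGATTNAT (a form of the Pbx-Hox site, both strands) occurred in none of the 3 and in 2.82% of all. Other forms of the Pbx-Hox site were not searched, so the count does not show that the 3 sequences lack such sites.

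H3K27me3 covered the HoxB cluster almost without a break. All 10 genes lay wholly inside H3K27me3 regions, from Hoxb13 (2295 bp) to Hoxb3 (40830 bp), whereas 0.557% of all protein-coding genes did so (122 of 21887). Among the 13202 genes within this range of lengths, 78 (0.591%) lay wholly inside. By the wider rule used for all genes, a region within 1000 bp of either gene end, H3K27me3 marked 10 of 10 members against 13.6% of all genes. Of the window, 97.8% lay inside H3K27me3 regions (189739 of 193939 bp), beside 3.27% of the span of all chromosomes.

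**Figure D1:**
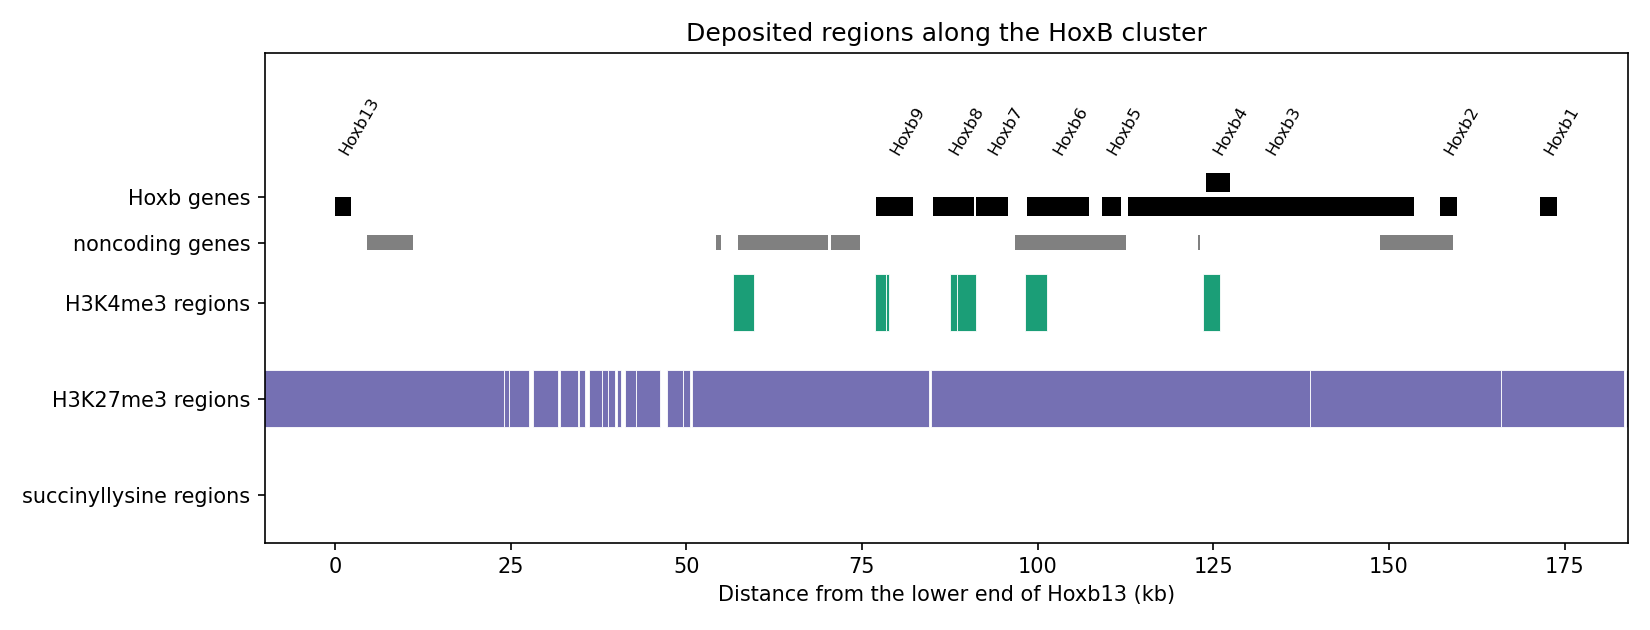
Map of the deposited regions (coloured blocks, 1 row per list) and annotated genes (black, Hoxb genes; grey, noncoding genes) over the HoxB window, drawn to scale against the distance from the lower end of Hoxb13 in kb. Thin white lines part regions that abut. H3K27me3 fills 97.8% of the window, the 7 H3K4me3 regions lie between Hoxb13 and the upper end of Hoxb4, and the succinyllysine row is empty.

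The H3K27me3 regions over the genes were among the widest of the genome. The region that held Hoxb13 was 56300 bp wide (96162001 to 96218300) and ranked 3 of 98342 by width, where the median was 600 bp. Hoxb9 lay in a 33700 bp region (96245101 to 96278800, rank 13). A 54000 bp region (96279101 to 96333100, rank 4) held Hoxb8, Hoxb7, Hoxb6, Hoxb5 and Hoxb4 whole and the lower part of Hoxb3. The rest of Hoxb3 and all of Hoxb2 lay in a 27100 bp region (96333101 to 96360200, rank 25), and Hoxb1 in a 17600 bp region (96360201 to 96377800, rank 80). The last 3 of these regions abutted. From the lower end of Hoxb9 to the upper end of Hoxb1 (96925 bp), the only bases outside H3K27me3 were 300 bp between Hoxb9 and Hoxb8 (96278801 to 96279100).

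The long space between Hoxb13 and Hoxb9 (74719 bp) was more broken up. H3K27me3 covered 71019 bp of it. In its middle the mark was listed as 13 regions of 600 to 3600 bp (median 1600 bp), some of which abutted. Over the window 7 of the 18 joints between neighbouring regions had no gap, and the other 11 gaps were 100 to 1000 bp wide. When regions within 1000 bp of each other were joined, the whole window fell in a single domain of 255100 bp (96146301 to 96401400) made of 29 regions. It ranked 3 of 52031 such domains, after one at Pax2 on chromosome 19 (278600 bp) and the one over the HoxC cluster (264400 bp). Its lower edge lay inside Ttll6, which encodes a tubulin-modifying enzyme and is the nearest protein-coding gene below the window. H3K27me3 covered 47.4% of Ttll6. Skap1, an adaptor of immune cell signalling and the nearest gene above, lay outside the domain. Other H3K27me3 regions covered 69.0% of it.

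**Figure D2:**
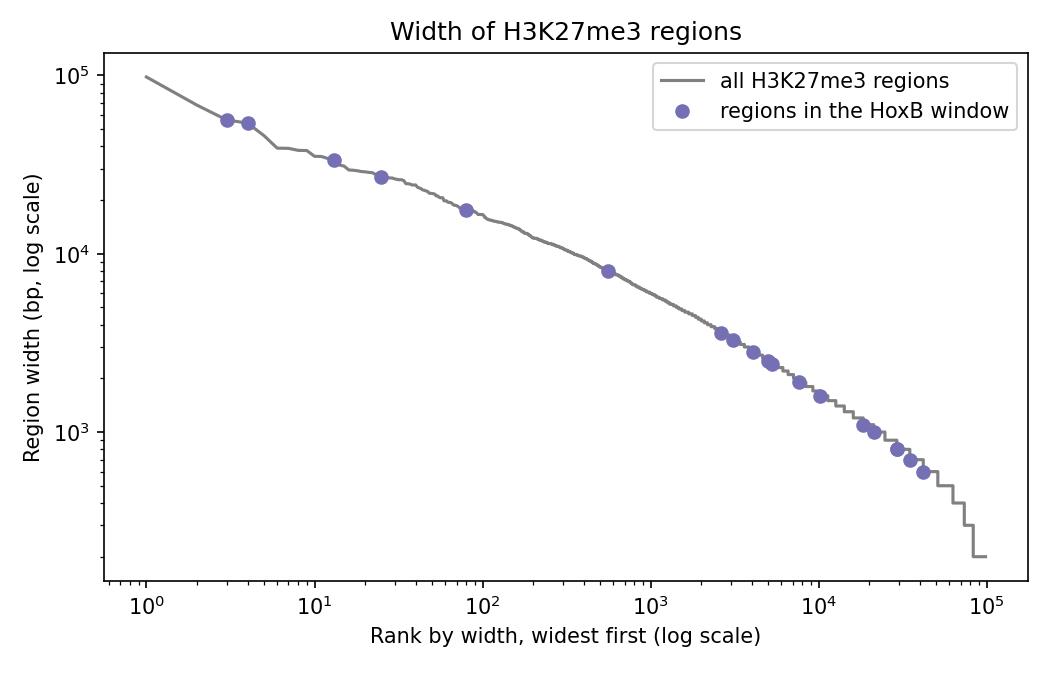
Width of every H3K27me3 region (grey line, bp, log scale) against its rank by width (log scale), with the 19 regions of the HoxB window as points. The 5 widest of them rank 3, 4, 13, 25 and 80 of 98342, and the narrow ones come from the space between Hoxb13 and Hoxb9.

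H3K4me3 was listed at 5 places inside this H3K27me3 cover. With abutting regions joined, these were 2900 bp at the lower end of the noncoding gene Gm53 (96251001 to 96253900), 2000 bp at the lower end of Hoxb9 (96271201 to 96273200), 3600 bp over Hoxb8 (96281901 to 96285500), 3100 bp at the lower end of Hoxb6 (96292501 to 96295600) and 2400 bp at the start of Hoxb4 (96317901 to 96320300). All 7 listed regions lay wholly inside H3K27me3 regions, whereas 1.54% of all H3K4me3 regions did (411 of 26654). Single regions were 500 to 3100 bp wide, and 5 of the 7 were wider than the list's median of 1100 bp. H3K4me3 covered 7.22% of the window, beside 1.86% of the span of all chromosomes, and none of the 10000 bp flanks.

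By the rule of 1000 bp around gene ends, 5 of the 10 members carried H3K4me3, close to the 55.6% of all genes. All 5 (Hoxb9, Hoxb8, Hoxb7, Hoxb6 and Hoxb4) also carried H3K27me3, a pair of marks found at the ends of 3.13% of all genes. Wholly inside H3K27me3 and with at least 1 base of H3K4me3 were 5 members, Hoxb9, Hoxb8, Hoxb6, Hoxb4 and Hoxb3, against 0.0868% of all genes. Of the 19 genes in that class, 5 were HoxB genes, 4 were HoxC genes and 10 lay outside the Hox clusters.

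**Figure D3:**
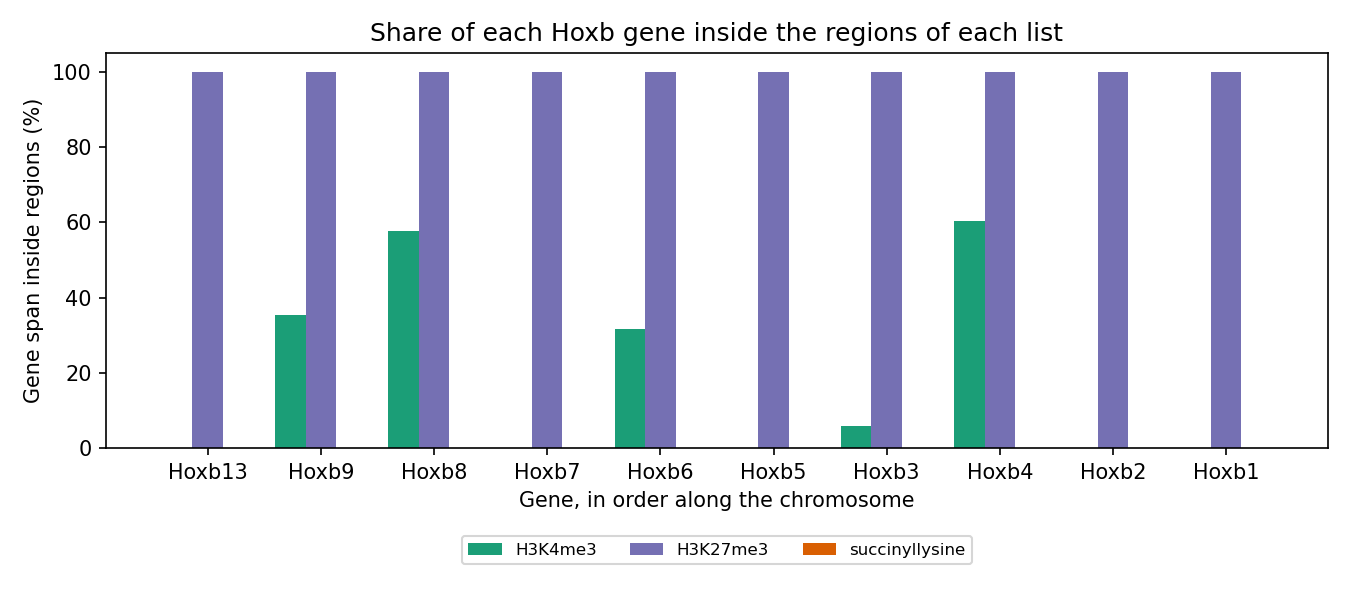
Share of each Hoxb gene (percent of its annotated span) inside the regions of each list, with genes in order along the chromosome. H3K27me3 stands at 100% for all 10 genes, H3K4me3 reaches 60.3% at Hoxb4 and 57.8% at Hoxb8 and is 0 at Hoxb13, Hoxb7, Hoxb5, Hoxb2 and Hoxb1, and succinyllysine is 0 throughout.

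At the tail end of the cluster, Hoxb13, which acts in the tail bud and the prostate, lay far from any H3K4me3. The nearest region was 54391 bp away, at Gm53. Hoxb9, which patterns thoracic ribs, had H3K4me3 over 1871 of its 5266 bp (35.5%). This lay at its lower end and stopped 3395 bp before its upper end.

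Among the central genes, Hoxb8, known for its role in myeloid progenitors and microglia, had the longest stretch of H3K4me3 in the cluster, 3425 of 5925 bp (57.8%). Its outer lower end (96279401), which in the table is the outermost of several RefSeq models including predicted ones, was 2500 bp from H3K4me3. The H3K4me3 began at the other annotated start (96281905) and ran past the upper end of the gene. Hoxb7, which has roles in the axial skeleton, had no H3K4me3 on its own bases. It counted as marked because the region over Hoxb8 ended 104 bp below it. Hoxb6, which acts in lateral mesoderm and the thoracic skeleton, had H3K4me3 over 2787 of 8756 bp (31.8%), at its lower end alone. The same region lay inside Hoxb5os, a noncoding gene of 15874 bp, of which it covered 3100 bp (19.5%), so it cannot be assigned to either gene from the list. Hoxb5, which has roles in enteric neural crest and blood stem cells, was 7912 bp from the nearest H3K4me3 and had none. Its neighbours by number, Hoxb4 and Hoxb6, both carried it. Hoxb4, known for expanding blood stem cells, had the highest share of its span under H3K4me3, 2034 of 3372 bp (60.3%). With 1000 bp added on each side this order turned, with 44.7% for Hoxb4 and 45.4% for Hoxb8.

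At the head end, Hoxb3, Hoxb2 and Hoxb1, which pattern the hindbrain and the nerves that leave it, carried no H3K4me3 at their outer ends. No transcription start was listed for Hoxb3, so a start inside its span was not examined. Hoxb3 is annotated over 40830 bp and holds Hoxb4 inside it. Its 2400 bp of H3K4me3 (5.88%) were the region at the Hoxb4 start, 10800 bp and 27630 bp from the outer ends of Hoxb3. The region touches both genes, so it cannot be assigned to either from the list. Hoxb2 was 31332 bp and Hoxb1 45446 bp from the nearest H3K4me3. From the Hoxb4 region upward the H3K4me3 list was empty for 419600 bp, up to a 700 bp region inside Skap1. Of 26633 gaps between neighbouring H3K4me3 regions, 4.35% were as wide or wider, and the median gap was 31900 bp. This share counts gaps and not bases. Wide gaps hold more bases each, so a given place lies in such a gap more often than the share shows.

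The 2 microRNA genes of the cluster are shown by their mature 5p sequences from RefSeq, with the seed (bases 2 to 8) in capitals, because both lie in the H3K27me3 cover and miR-196a is known to target Hoxb8. Their seeds differ. Mir196a-1 lies between Hoxb13 and Hoxb9 (hairpin 96265164 to 96265265), and Mir10a inside Hoxb3 just below Hoxb4 (hairpin 96317165 to 96317274), both on the plus strand.
mmu-miR-196a-5p: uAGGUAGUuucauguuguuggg
mmu-miR-10a-5p: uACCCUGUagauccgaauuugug

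Both hairpins lay wholly inside H3K27me3 and outside H3K4me3. Mir10a was 627 bp from the H3K4me3 region at Hoxb4, and Mir196a-1 was 5936 bp from the one at Hoxb9. The other noncoding genes of the window, Gm30134, Gm11538, Gm53, Gm51876, Hoxb5os and Hoxb3os, and the pseudogene Gm11539 were also covered by H3K27me3 over their whole length. Of these, H3K4me3 covered 2241 bp of Gm53 (17.5%), 3100 bp of Hoxb5os and none of the others.

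Succinyllysine was not listed anywhere in the window. It marked 0 of 10 members at a gene end, a count that lies near the 5.42% of all genes. The succinyllysine list covered 0.277% of the span of all chromosomes. The nearest region below the window was 107416 bp away (96076201 to 96076900, 700 bp). The nearest above was 589347 bp away, a 2300 bp region touching Sp2, which encodes a zinc finger transcription factor (96967601 to 96969900). The cluster thus lay in a stretch of 890700 bp without a listed succinyllysine region, which also held 10 other protein-coding genes. Such stretches were not rare, since 6.87% of the 10867 gaps between neighbouring succinyllysine regions were as wide or wider. Here too gaps were counted and not bases.

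The 4 Hox clusters differed in their cover. With 10000 bp on each side of each cluster, H3K27me3 covered 97.8% of HoxB, 99.9% of HoxC, 54.6% of HoxD and 0.675% of HoxA (from Hoxa2 to Hoxa13). H3K4me3 covered 7.22% of HoxB, 14.3% of HoxC, 38.4% of HoxD and 82.7% of HoxA. Succinyllysine was listed with 9 regions over HoxA (19.1% of the window), 10 over HoxD (14.8%), 1 over HoxC (0.737%) and 0 over HoxB. In these values HoxB lay nearest to HoxC, where 8 of 9 genes lay wholly inside H3K27me3, 4 carried both histone marks and 7 of 8 H3K4me3 regions were wholly inside H3K27me3. With 1 list per antibody these differences between clusters were not tested.

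**Figure D4:**
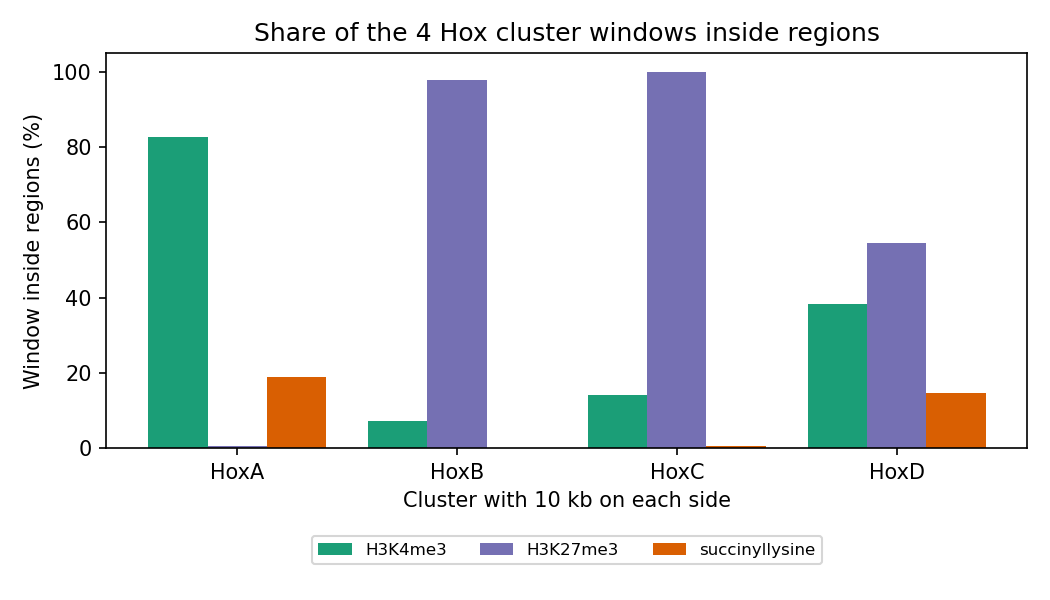
Percent of each Hox cluster window (the genes with 10 kb on each side) inside the regions of each list. HoxB has 97.8% under H3K27me3, 7.22% under H3K4me3 and 0% under succinyllysine, HoxC is close to it, and HoxA has 82.7% under H3K4me3 and 0.675% under H3K27me3.

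Set beside their paralogues, genes with the same group number in the other clusters, the HoxB genes differed from HoxA in groups 2 to 7, 9 and 13. Hoxa2 to Hoxa7, Hoxa9 and Hoxa13 had H3K4me3 and no H3K27me3 at their ends. In group 4, Hoxb4 (60.3% under H3K4me3) and Hoxc4 (13.9%) carried both marks, Hoxd4 H3K27me3 alone and Hoxa4 H3K4me3 alone. Hoxb5 had H3K27me3 alone, while Hoxc5 had both marks with 61.2% of its span under H3K4me3. In groups 6 and 8 the HoxB and HoxC genes and Hoxd8 all had both marks. Hoxb3 had H3K27me3 alone at its ends, and Hoxd3 had both. In group 9, Hoxb9 had both marks at its ends, Hoxc9 had H3K27me3 at its ends and H3K4me3 over 32.4% of its span away from them, and Hoxd9 had H3K4me3 alone. In group 1, Hoxb1 and Hoxd1 both had H3K27me3 alone. In group 13, Hoxb13 and Hoxc13 had H3K27me3 alone, and Hoxd13 had H3K4me3 at its ends and H3K27me3 over 26.6% of its span away from them. Succinyllysine was at the ends of Hoxa3, Hoxa5, Hoxa6, Hoxa9 and Hoxd13 among these paralogues, and at none of the HoxB genes.

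**Figure D5:**
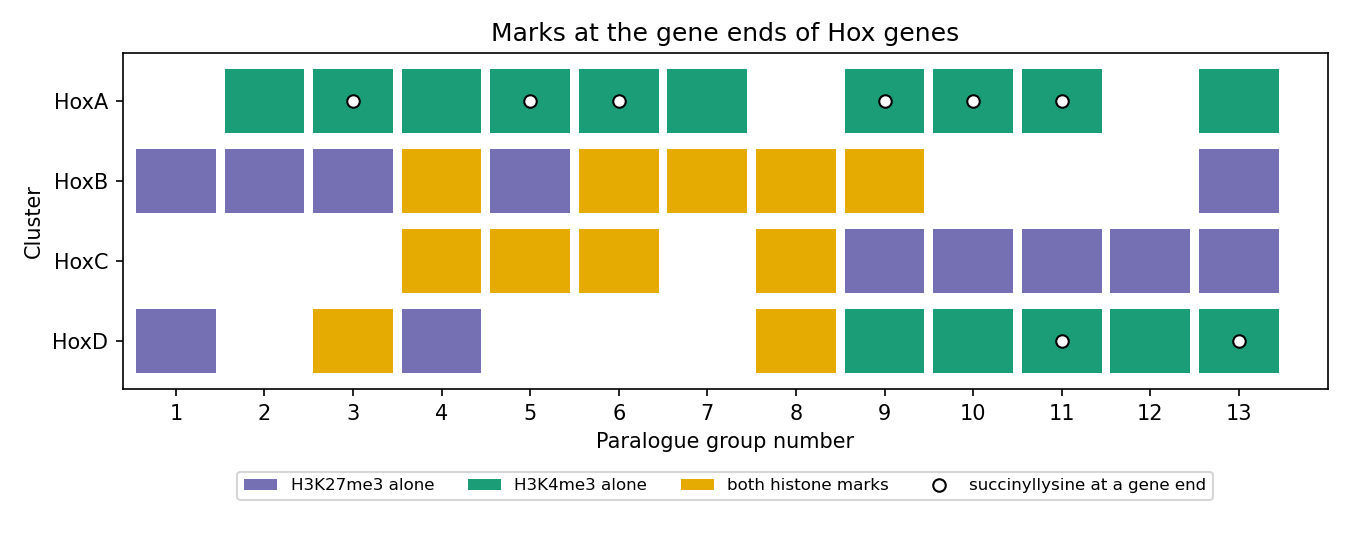
State of 38 Hox genes by cluster and paralogue group number, from regions within 1000 bp of either gene end. Colours give the histone marks, circles give succinyllysine, and empty places are groups a cluster does not have or that were not analysed here. The HoxB row holds 5 genes with both histone marks and 5 with H3K27me3 alone, and no circle.

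Hox proteins bind DNA together with Pbx, Meis and Pknox proteins, and Cdx factors, retinoic acid receptors, Kmt2a and Polycomb proteins regulate the clusters. Of 25 such genes, H3K4me3 was at the ends of 19 (55.6% of all genes had it), H3K27me3 at those of 2 (13.6% of all), both at none (3.13% of all) and succinyllysine at 2 (5.42% of all). The counts for H3K27me3, both marks and succinyllysine lie near these shares. All 9 Pbx, Meis and Pknox genes had H3K4me3 (2000 to 20100 bp) and no H3K27me3. The 2 with H3K27me3 were Cdx2 (14100 bp) and Cdx4 (2300 bp), caudal-type homeobox factors that activate Hox genes in the embryo. Cdx1, Egr2 and the retinoic acid receptor genes Rara and Rarb had neither histone mark at their ends, and the receptor gene Rarg had H3K4me3. The PRC2 genes Ezh2, Eed and Suz12 each had H3K4me3. Read against the labelled cell type, 13 of 14 fibroblast marker genes had H3K4me3 at a gene end (against the 55.6% of all genes). None had H3K27me3, a count that lies near the 13.6% of all genes for so short a list. The gene without H3K4me3 was Thy1, which had neither mark. H3K4me3 was at 1 of 6 haematopoietic and endothelial, 1 of 5 neuronal and 3 of 5 epithelial markers, beside the same 55.6%. H3K27me3 was at 1 of 6, 4 of 5 and 3 of 5 of these, in the same order, beside the same 13.6%. Both marks were at 2 epithelial genes. The H3K4me3 regions at non-fibroblast markers were 600 to 1400 bp wide, against 3200 to 9200 bp at the fibroblast markers.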

How the data were processed

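Regions of ChIP-seq enrichment were taken from 3 lists, 1 per antibody, deposited for 4 ChIP samples each. The authors deposited region starts and ends alone, without any score, height or sample value, so depth is unknown and the input libraries were not analysed here. The submitters' processing notes name Bowtie2 (2.2.3) and the build mm10. Which peak caller and threshold were used, and how input entered, is not stated in the labels. All starts end in 01 and ends in 00, which was taken as 1-based positions in steps of 100 bp, the precision of every edge.

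Genes, starts and microRNAs came from RefSeq tables of GRCm38.p6. The gene table gives outer ends without strand, and 13 protein-coding genes on a chromosome without regions were left out. The promoter table held 3 of 10 members, and protein sequences were not used here. A gene was counted for a mark if at least 1 bp of a region fell within 1000 bp of either gene end. Cover is the share of bases inside regions. 1 gene of the fixed Hox list is not reported here. Named genes were the members, the other genes of the window with the nearest protein-coding gene on each side, paralogues of the same group number, and cofactors or regulators with H3K27me3. Others, such as Pax2 and Sp2, were named after their values were seen. The members and lists were chosen with earlier results of these data known. No test was run, since 1 list per antibody has no replicates. Counts of members and of listed genes are set beside the share over all genes. Calculations used Python 3.11.15 and NumPy 2.4.6, and were checked on simulated regions.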

Additional observations from a re-analysis of the deposited data

How the results depend on the processing

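The counts of members with each mark were recomputed with windows of 500 and 2500 bp, whole genes with 1000 bp on each side, regions above the median width of each list, an overlap of at least 200 bp and, added after the data were seen, gene spans with no window. H3K27me3 stayed at 10 of 10 members and succinyllysine at 0 of 10 in all of these, and H3K4me3 and both histone marks stayed at 5, except that whole genes gave 6 by adding Hoxb3, which holds the Hoxb4 region. The 5 genes of the span without window had Hoxb3 in place of Hoxb7. At the annotated transcription start alone, known for 3 members, H3K4me3 was at 2, H3K27me3 at 3 and both at 2, a change that follows from fewer genes tested. With no flank or 20000 bp the cover of the window differed by less than 1 percentage point for each list. Joining regions within 1000 bp raised H3K27me3 cover from 97.8% to 100% and lowered its regions from 19 to 1, as its construction gives. Of single genes, Hoxb8 fell from 57.8% to 42.6% under H3K4me3 and Hoxb9 from 35.5% to 26.0% with the wider regions alone. With 1000 bp added on each side Hoxb7 rose from 0 to 13.7%, and Hoxb4 (44.7%) came just below Hoxb8 (45.4%). No paired analysis was possible because the lists hold no values per sample. A region that is not listed may lie under the authors' threshold, which the labels do not state.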
